A study of Mus musculus with 18 samples.

Results

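The change in cardiac gene expression between 1 day and 5 days after ischemia/reperfusion (I/R) injury was measured in CaMKIIδ/γ double knockout (DKO) mouse hearts. All 3 arrays labelled DKO I/R 1 day and all 3 arrays labelled DKO I/R 5 days were taken, 6 of the 18 arrays of the series. Each array measured 24479 features, 1 per gene, as log2 values. DKO mice carry loxP-flanked Camk2d and Camk2g together with a Cre recombinase under the α-MHC promoter, which is active in cardiomyocytes, so that other cells of the heart keep both genes. FFFF mice have the same loxP-flanked alleles but lack Cre, and are named wild-type in the labels. The methods state adult age at surgery for DKO mice, with no separate age for FFFF mice, and both lines had a mixed 129/Sv and C57BL/6 background. The left anterior descending coronary artery was tied and then reopened, and RNA was taken from the ischemic area of the left ventricle at 1 or 5 days, whereas sham-operated hearts gave left ventricular myocardium. The 4 groups used here beside the DKO I/R groups, namely DKO sham, FFFF sham, FFFF I/R 1 day and FFFF I/R 5 days, also held 3 arrays each. The comparison asks how the transcriptome of the injured DKO ventricle moves from the first day to the fifth day of repair. Neither the labels nor the methods state which animal gave which array, and p-values therefore measure only the spread between arrays.

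A reperfused infarct heals in overlapping steps. Dying cardiomyocytes and resident cells release chemokines that draw neutrophils and then monocytes into the tissue, and surviving cardiomyocytes switch on stress genes and chaperones. Later, macrophages that clear debris, marked by complement C1q and lipid-handling genes, replace the early leukocytes, while fibroblasts divide, turn into myofibroblasts and lay down collagen and other matrix proteins that become the scar. CaMKII is a calcium- and calmodulin-activated kinase, and the δ and γ isoforms are those of the adult cardiomyocyte.

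Camk2d (Entrez gene 108058, chromosome 3) had log2 values of 9.71, 7.90 and 8.31 in the 3 DKO arrays of 1 day and of 8.42, 8.42 and 8.87 in those of 5 days. For Camk2g (Entrez gene 12325, chromosome 14), the values were 7.10, 5.99 and 6.21 at 1 day and 6.46, 6.34 and 6.04 at 5 days, in the order of replicates 1, 2 and 3, as in all such lists below. The 9 FFFF arrays ranged from 9.27 to 9.85 for Camk2d and from 6.76 to 7.70 for Camk2g. Replicate 1 of the arrays labelled DKO I/R 1 day thus lay within the FFFF range in both genes, unlike the other 5 DKO I/R arrays. The DKO sham arrays had 9.17, 9.27 and 9.10 for Camk2d, at the lower edge of the FFFF range, and 5.46, 5.72 and 5.87 for Camk2g, below it. Whether the probes lie in the deleted exons was not checked. A further array of that day, DKO I/R 1 day replicate 2, lay closest to sham: it correlated with the 3 DKO sham arrays by 0.981 to 0.985 over all features, against 0.953 to 0.970 for replicates 1 and 3. Xist and Y-linked transcripts showed that all sham and 1 day arrays came from female hearts and that in each genotype replicates 1 and 2 of 5 days were male and replicate 3 was female. Sex and day are thus partly confounded, and every direction below includes the array with Camk2d at the FFFF level. The spread was larger at 1 day, where 277 features had an SD over 1, than at 5 days, where 59 did, or in DKO sham hearts, where 20 did.

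Between 1 day and 5 days, 1124 of the 24479 features changed in DKO hearts (4.59%, limma adjusted p under 0.05). Of these, 599 rose (2.45% of all features) and 525 fell (2.14%), and at an unadjusted p under 0.05 the number was 4732. The rises were the larger changes: the median was 0.965 on the log2 scale among the genes that rose and -0.627 among those that fell, and a difference of at least 1 was reached by 287 risen and 74 fallen genes. The median difference over all features was -0.0216. Leaving out single arrays moved the count between 275 and 2041, as the plot of calls by arrays used shows, and 190 genes (138 risen and 52 fallen) were called in all 6 such fits. The count was 280 without DKO I/R 1 day replicate 1, 2041 without its replicate 2, 275 without DKO I/R 5 days replicate 1, 359 without its replicate 2 and 676 without its replicate 3. Where several arrays are named below beside a lost call, each was left out on its own. With sex as a covariate 479 genes were called, 351 of them among the 1124. With the 2 DKO groups fitted alone 58 were, 48 of them among the 1124. Many of the called genes named below did not pass with sex as a covariate, and only examples are given here. Myl9, Aplnr and Ccl8 did not pass (adjusted p = 0.143, 0.138 and 0.0879), nor did Lox, Hspa5 and Ccnd1 (adjusted p = 0.121, 0.133 and 0.133). Neither did Mfap4, Dpt and Mmp2 (adjusted p = 0.0554, 0.0581 and 0.0548), whereas Col1a2 and Cilp did (adjusted p = 0.0374 and 0.0081). Conversely, Gbp3, Bcl2l11 and Casp1 passed with sex as a covariate (adjusted p = 0.0175, 0.0465 and 0.0453), though not in the fit without it.

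**Figure D1:**
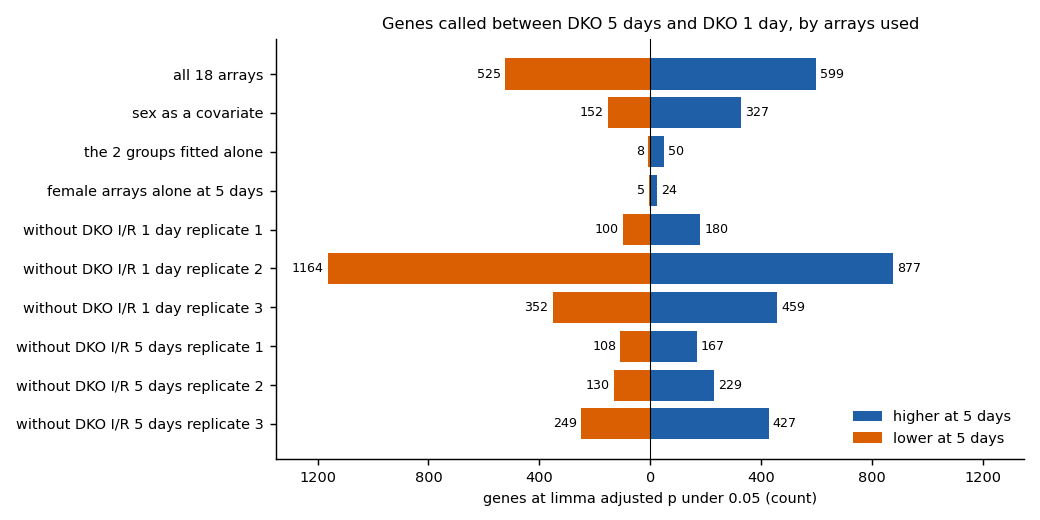
Number of genes at a limma adjusted p under 0.05 between DKO I/R 5 days and DKO I/R 1 day (horizontal axis, counts), split into genes higher (right) and lower (left) at 5 days, for the fit of all 18 arrays and for fits with other arrays or with sex as a covariate. The full fit called 599 higher and 525 lower genes, and the fit without DKO I/R 1 day replicate 2 called 877 and 1164.

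Counts of risen and fallen members in the gene lists stand against 2.45% and 2.14% of all features in the fit of all arrays. Counts from fits with an array left out stand against the calls of the same fit. Of 24479 features, 877 rose and 1164 fell without DKO I/R 1 day replicate 2. Without its replicate 1, 180 rose and 100 fell. Of the gene lists, the collagens and the matrix glycoproteins and proteoglycans had the highest medians. Of 19 collagen genes measured, 13 rose, none fell, and the median difference was 1.76 on the log2 scale, against -0.0216 over all features. Among 32 matrix glycoproteins and proteoglycans, 23 rose and none fell, with a median of 1.73. Of 22 genes for collagen processing and cross-linking, 9 rose, with a median of 0.56. In these whole-tissue samples, more cells of a type and more RNA per cell cannot be told apart. The 3 lists held 9 to 14, 13 to 24 and 1 to 8 risen members when single arrays were left out, and their medians without DKO I/R 1 day replicate 1 were 1.41, 1.44 and 0.47. The collagen processing list was the least stable, with 1 risen member without DKO I/R 1 day replicate 1 or DKO I/R 5 days replicate 1, 2 without DKO I/R 5 days replicate 2 and 5 without DKO I/R 1 day replicate 3. All 6 leave-one-out fits called 9 of the 13 risen collagens and 12 of the 23 risen matrix genes. Without DKO I/R 1 day replicate 2, 2 members of the collagen processing list fell. The matrix list held 14 risen members without DKO I/R 1 day replicate 1, 13 without DKO I/R 5 days replicate 1 and 15 without its replicate 2.

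Among the fibrillar collagens and their partners, Col1a2, a chain of type I collagen, had values of 8.83, 10.39 and 10.16 at 1 day and 12.61, 12.52 and 11.83 at 5 days. All 5 day arrays lay above all 1 day arrays, and the female array of 5 days was the lowest of its group. The rise was 2.53 (standard error 0.41, adjusted p = 0.00646), and the sham values were 8.97, 9.21 and 9.32. Col5a2, a type V chain that helps to set fibril diameter, went from 7.65, 8.19 and 8.49 to 10.70, 10.51 and 9.89, a rise of 2.26 (standard error 0.36, adjusted p = 0.00609). Collagens that decorate fibrils moved further: Col12a1 rose by 3.25 (standard error 0.40, adjusted p = 0.00181), from 5.72, 5.16 and 5.95 to 9.43, 9.12 and 8.04, and Col14a1 by 3.65 (standard error 0.60, adjusted p = 0.00726), from 5.03, 7.62 and 7.02 to 10.46, 10.29 and 9.86. The 1 day values of Col14a1 spread widely, with the lowest in the array with Camk2d at the FFFF level, whereas its 5 day values lay within 1 log2 unit. All 4 were called in each fit that left 1 array out. Col1a1 and Col3a1, the most abundant scar collagens and named after their values were seen, rose by 2.38 (standard error 0.42, adjusted p = 0.00898) and 2.52 (standard error 0.43, adjusted p = 0.00794).

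Thbs4, a thrombospondin of injured muscle, had values of 7.54, 7.67 and 7.88 at 1 day and 10.89, 10.28 and 10.93 at 5 days. The groups did not overlap, and the rise of 3.01 (standard error 0.29, adjusted p = 0.000449) had the smallest p among the collagen and matrix lists. Cilp, a matrix protein that binds TGF-β, showed 4.35, 6.41 and 6.08 at 1 day, 10.31, 10.03 and 9.90 at 5 days and 6.61, 6.50 and 7.92 in sham hearts. Its value at 1 day was thus below the sham range in all 3 arrays, and it then rose by 4.47 (standard error 0.50, adjusted p = 0.000906). The elastic fibre protein Eln rose by 3.15 (standard error 0.45, adjusted p = 0.00415) and its companion Mfap4 by 3.63 (standard error 0.68, adjusted p = 0.0123), from 6.51, 10.28 and 7.98 to 12.20, 11.95 and 11.52. Mfap4 at 1 day covered nearly 4 log2 units, with replicate 2 above the sham values of 9.70, 9.38 and 9.69 and replicates 1 and 3 below them, and its call was lost without DKO I/R 5 days replicate 1 (adjusted p = 0.0549). Fmod and Aspn, small leucine-rich proteoglycans that bind collagen, rose by 3.48 (standard error 0.51, adjusted p = 0.00437) and 3.55 (standard error 0.52, adjusted p = 0.00437).

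**Figure D2:**
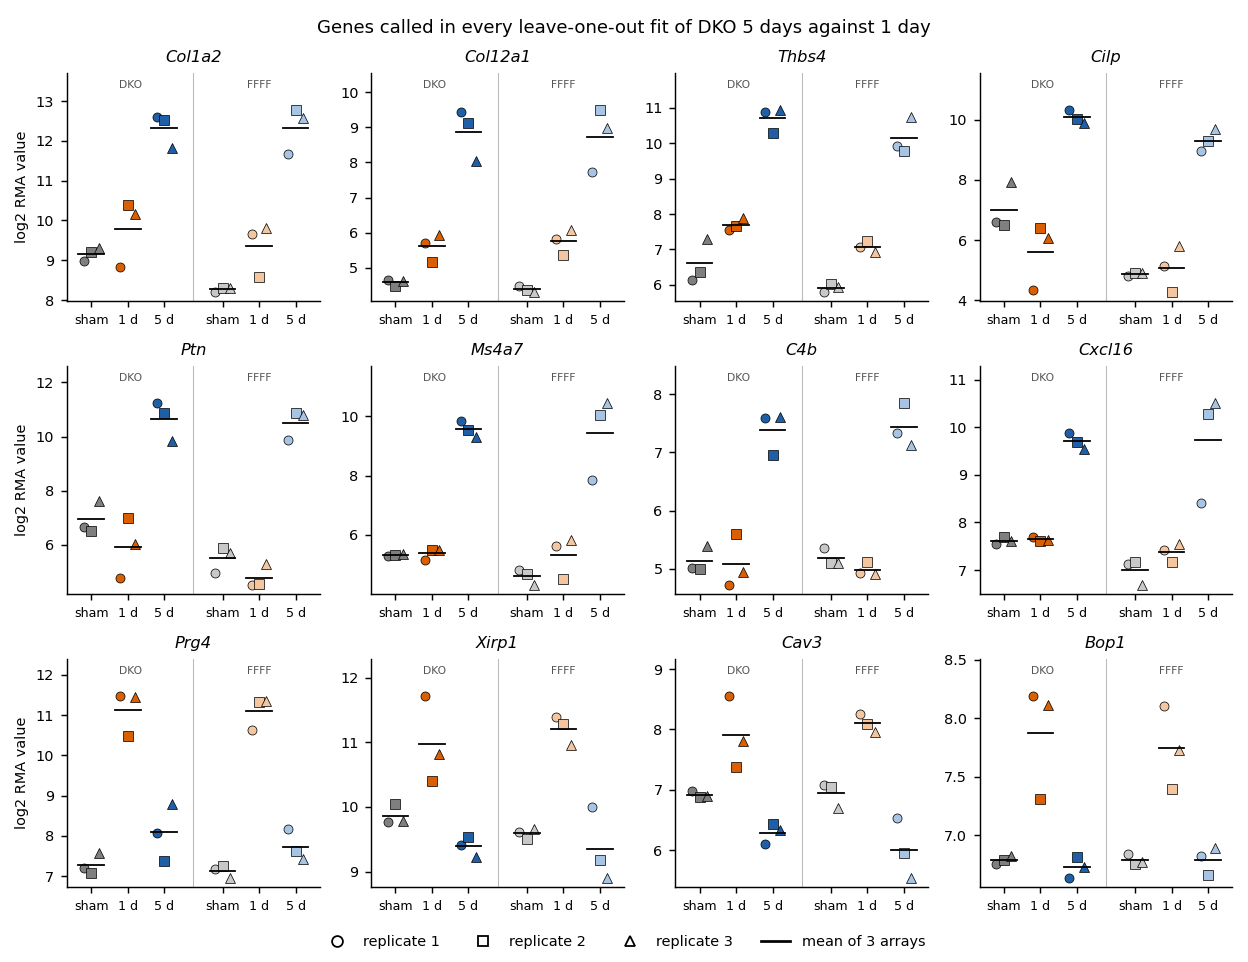
Log2 RMA values (vertical axes) of 12 genes in each array of DKO (left side of each panel) and FFFF hearts (right side) after sham surgery and on both days after I/R. Symbols mark replicates 1 to 3 and lines the mean of 3 arrays. The 12 genes were chosen among those called in each leave-one-out fit of DKO 5 days against 1 day. Their DKO values of 1 and 5 days do not overlap, as in 1115 of the 1124 called features, and that choice makes this likely. In Cilp all 3 arrays of 1 day lay below all DKO sham arrays, and in Ptn, Col1a2, Ms4a7 and C4b at least 1 did. Bop1 returned to the sham level at 5 days.

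Enzymes that mature and cross-link collagen follow. Loxl2, which cross-links collagen, went from 6.44, 7.74 and 7.68 to 9.24, 9.16 and 9.16, a rise of 1.90 (standard error 0.29, adjusted p = 0.00551), and it was the only one of the 9 risen members that was called in all 6 leave-one-out fits. Adamts2, which trims the ends of procollagen, rose by 1.66 (standard error 0.32, adjusted p = 0.0138) and lost its call without DKO I/R 1 day replicate 1 or DKO I/R 5 days replicate 1 (adjusted p = 0.052 to 0.0578). Pcolce, which enhances the cleavage of procollagen, rose by 1.29 (standard error 0.30, adjusted p = 0.0271), whereas the increase of Lox, the main cross-linking enzyme, was 1.63 (standard error 0.38, adjusted p = 0.0297). Lox was already far above the sham values of 5.56, 5.85 and 6.01 at 1 day, with 9.22, 9.09 and 9.46, and reached 11.22, 11.11 and 10.31 at 5 days. The calls of Pcolce and Lox were lost without DKO I/R 1 day replicates 1 and 3 or DKO I/R 5 days replicates 1 and 2 (adjusted p = 0.0571 to 0.101) for Pcolce and without DKO I/R 1 day replicates 1 and 3 or DKO I/R 5 days replicates 1 and 2 (adjusted p = 0.0516 to 0.118) for Lox.

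Further secreted proteins were among the 12 largest rises. Ptn, which encodes the heparin-binding growth factor pleiotrophin, had the largest of all, 4.72 (standard error 0.53, adjusted p = 0.000906), with values of 4.76, 6.99 and 6.02 at 1 day and 11.23, 10.87 and 9.85 at 5 days. Sfrp2, a secreted inhibitor of Wnt signaling, rose by 4.12 (standard error 0.65, adjusted p = 0.006), from 5.90, 9.0 and 7.28 to 11.71, 11.49 and 11.34. C1qtnf3, an adipokine of the complement C1q and TNF family, stood at 4.43, 4.17 and 4.31 at 1 day, the level of sham hearts (4.14, 4.46 and 4.28), and at 9.0, 8.67 and 6.08 at 5 days. Here the female array lay far below the 2 male arrays of 5 days but above all 1 day arrays. The rise was 3.61 (standard error 0.62, adjusted p = 0.00852), and 2.78 (adjusted p = 0.0557) with sex as a covariate. Itgbl1, an integrin-like secreted protein, rose by 3.54 (standard error 0.72, adjusted p = 0.0159), from widely spread values of 5.01, 8.89 and 6.75, and lost its call without DKO I/R 1 day replicate 1 or DKO I/R 5 days replicates 1 and 2 (adjusted p = 0.056 to 0.0662). Ptn, Sfrp2 and C1qtnf3 were called in all 6 leave-one-out fits.

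Of 19 myofibroblast and smooth muscle genes, 5 rose and none fell, with a median of 0.54 and 2 to 6 risen members when single arrays were left out. Ddah1, which degrades an inhibitor of nitric oxide synthesis, went from 8.17, 8.04 and 7.87 to 10.95, 10.57 and 10.15 and rose by 2.53 (standard error 0.34, adjusted p = 0.00315). Fap, the surface protease that marks activated fibroblasts, went from 4.91, 5.26 and 5.64 to 8.37, 8.02 and 6.99, a rise of 2.52 (standard error 0.33, adjusted p = 0.00287). Both were called in every leave-one-out fit. Pdgfrb, a growth factor receptor of mural cells and fibroblasts, rose by 0.67 (standard error 0.13, adjusted p = 0.0131), and Myl9, a myosin light chain of contractile cells, by 2.39 (standard error 0.52, adjusted p = 0.0206). The Myl9 values of 5 days were 11.44, 11.68 and 9.41, with the female array near the sham values of 9.10, 9.29 and 9.0. Their calls were lost without DKO I/R 1 day replicate 1 or DKO I/R 5 days replicate 1 (adjusted p = 0.055 to 0.0605) for Pdgfrb and without DKO I/R 1 day replicate 1 or DKO I/R 5 days replicates 1 and 2 (adjusted p = 0.0879 to 0.0945) for Myl9. The list held 2 risen members without DKO I/R 1 day replicate 1 or DKO I/R 5 days replicate 1 and 3 without DKO I/R 5 days replicate 2.

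Of 17 markers of resting fibroblasts, 4 rose and none fell at the threshold. The median was 0.31, with 11 positive and 6 negative differences. Cd34, a surface protein of interstitial progenitors and endothelium, rose by 0.92 (standard error 0.15, adjusted p = 0.00649) from 9.73, 10.13 and 10.26 to 11.18, 10.85 and 10.85. Tcf21, a transcription factor of cardiac fibroblasts, rose by 1.62 (standard error 0.29, adjusted p = 0.00994), Dpt, which encodes dermatopontin, by 1.84 (standard error 0.36, adjusted p = 0.0143), and Mgp, an inhibitor of calcification, by 1.09 (standard error 0.29, adjusted p = 0.0464). For Dpt, the 1 day values of 8.86, 10.36 and 9.85 lay below the sham values of 10.38, 10.64 and 10.85 and the 5 day values of 11.82, 11.41 and 11.37 above them. Cd34 kept its call in all 6 fits. That of Tcf21 was lost without DKO I/R 5 days replicate 1 (adjusted p = 0.0503), that of Dpt without DKO I/R 1 day replicate 1 or DKO I/R 5 days replicate 1 (adjusted p = 0.059 to 0.0662) and that of Mgp without DKO I/R 1 day replicates 1 and 3 or DKO I/R 5 days replicates 1, 2 and 3 (adjusted p = 0.0809 to 0.183). The list held 2 risen members and a median of 0.01 without DKO I/R 1 day replicate 1, 8 and 0.85 without replicate 2, and 1 risen member without DKO I/R 5 days replicate 1. The median was 0.07 without DKO I/R 1 day replicate 3 and 0.11 without DKO I/R 5 days replicate 3.

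In the TGF-β and activin pathway, 3 of 23 genes rose and 1 fell, with 1 to 3 risen members when single arrays were left out. Fstl1, a secreted follistatin-like protein of repair, rose by 1.51 (standard error 0.26, adjusted p = 0.00895) from 9.70, 10.14 and 10.16 to 11.73, 11.59 and 11.22 and was called in all 6 leave-one-out fits. The ligand Tgfb3 rose by 2.07 (standard error 0.40, adjusted p = 0.0138), and the receptor Acvr1 by 0.56 (standard error 0.14, adjusted p = 0.033). Fstl3, an activin antagonist, fell by 1.17 (standard error 0.31, adjusted p = 0.0485), from 10.28, 8.93 and 9.94 to 8.44, 8.88 and 8.34. The calls were lost without DKO I/R 1 day replicate 1 or DKO I/R 5 days replicates 1 and 2 (adjusted p = 0.0536 to 0.0628) for Tgfb3, DKO I/R 1 day replicates 1, 2 and 3 or DKO I/R 5 days replicates 1, 2 and 3 (adjusted p = 0.051 to 0.118) for Acvr1 and DKO I/R 1 day replicates 1 and 3 or DKO I/R 5 days replicates 1, 2 and 3 (adjusted p = 0.0747 to 0.196) for Fstl3. The list median was 0.15, and it was 0.04 without DKO I/R 1 day replicate 2, 0.09 without DKO I/R 5 days replicate 1, 0.10 without DKO I/R 5 days replicate 2 and 0.08 without DKO I/R 5 days replicate 3.

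Matrix proteases and their inhibitors moved in both directions, with 6 of 25 risen, 1 fallen and a median of 0.03 (-0.05 without DKO I/R 5 days replicate 1 to 0.16 without DKO I/R 1 day replicate 1). Serpine2, an inhibitor of thrombin and plasminogen activators, had the smallest p of the list: it went from 6.76, 7.34 and 7.20 to 10.23, 9.93 and 9.07, and rose by 2.64 (standard error 0.30, adjusted p = 0.000953) with its call kept in all 6 fits. Mmp2, which degrades gelatin and type IV collagen, rose by 2.37 (standard error 0.44, adjusted p = 0.0116), its partner Timp2 by 1.56 (standard error 0.30, adjusted p = 0.0138) and Mmp23 by 1.53 (standard error 0.28, adjusted p = 0.0107). Mmp2 at 1 day was 8.06, 9.81 and 7.93, with replicate 2 at the sham level (9.86, 9.89 and 10.25) and replicates 1 and 3 below it. The calls of Mmp2 and Mmp23 were lost without DKO I/R 1 day replicate 1 or DKO I/R 5 days replicate 1 (adjusted p = 0.0539 to 0.0569) for Mmp2 and without DKO I/R 1 day replicate 1 or DKO I/R 5 days replicate 1 (adjusted p = 0.0534 to 0.055) for Mmp23, and that of Timp2 without DKO I/R 5 days replicate 1 (adjusted p = 0.0606). The single member that fell was Mmp3, a protease of early injury, named after its values were seen: it fell by 0.91 (standard error 0.24, adjusted p = 0.0467), and its call was lost without DKO I/R 1 day replicates 1 and 3 or DKO I/R 5 days replicates 1, 2 and 3 (adjusted p = 0.0888 to 0.129). The list held 3 risen members without DKO I/R 1 day replicate 1 and 1 without DKO I/R 5 days replicate 1, and 5 members fell without DKO I/R 1 day replicate 2.

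Macrophages of the clearing and repair type replace early leukocytes in a healing infarct. Of 25 resident and repair macrophage genes, 11 rose, none fell, and the median was 1.14, with 4 to 12 risen members when single arrays were left out. The mean of the list was 7.46, 7.45 and 7.33 in the arrays of 1 day and 9.14, 8.54 and 8.70 in those of 5 days. Ms4a7, a macrophage membrane protein, stood at 5.14, 5.49 and 5.49 at 1 day, near sham (5.29, 5.32 and 5.35), and at 9.86, 9.55 and 9.32 at 5 days. Its rise of 4.20 (standard error 0.50, adjusted p = 0.00144) was 1 of the 4 largest of the comparison. Gpnmb, a glycoprotein of phagocytes that digest lipid-rich debris, went from 5.06, 5.58 and 4.87 to 10.42, 8.83 and 10.33, a rise of 4.69 (standard error 1.02, adjusted p = 0.021), and lost its call without DKO I/R 1 day replicates 1 and 3 or DKO I/R 5 days replicates 1 and 3 (adjusted p = 0.0541 to 0.0859). Igf1, which encodes a growth factor that macrophages and fibroblasts secrete, rose by 2.32 (standard error 0.34, adjusted p = 0.00437), Apoe, a lipid carrier, by 1.98 (standard error 0.31, adjusted p = 0.00551) and C1qc, a chain of the complement starter C1q, by 2.05 (standard error 0.35, adjusted p = 0.00859). Ms4a7, Igf1, Apoe and C1qc were called in each leave-one-out fit. The counts without DKO I/R 1 day replicate 1 and DKO I/R 5 days replicate 1 were 5 and 4, and those without DKO I/R 1 day replicate 3 and DKO I/R 5 days replicate 2 were both 7.

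Of 14 complement components, 4 rose and none fell, with a median of 0.79. C4b, a central component of the classical pathway, went from 4.72, 5.60 and 4.95 to 7.59, 6.96 and 7.62 and rose by 2.30 (standard error 0.24, adjusted p = 0.000629). C1s1, a protease subunit of C1, went from 4.16, 4.93 and 6.34, all below the sham values of 7.10, 6.53 and 7.28, to 8.66, 8.73 and 8.24, a rise of 3.40 (standard error 0.47, adjusted p = 0.00352). Both were called in each leave-one-out fit. C3 rose by 1.74 (standard error 0.46, adjusted p = 0.0456) and the C1 inhibitor Serping1 by 1.59 (standard error 0.42, adjusted p = 0.048), and these calls were lost without DKO I/R 1 day replicates 1 and 3 or DKO I/R 5 days replicates 1, 2 and 3 (adjusted p = 0.0616 to 0.18) for C3 and without DKO I/R 1 day replicates 1 and 3 or DKO I/R 5 days replicates 1, 2 and 3 (adjusted p = 0.105 to 0.193) for Serping1. Without DKO I/R 1 day replicate 2, 6 members of the list rose, and each of the other 5 leave-one-out fits called 2.

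The monocyte and inflammatory macrophage list had a median of -0.05. With single arrays left out it ranged from -0.33 (without DKO I/R 1 day replicate 2) to 0.06 (without its replicate 1). Of 20 members 1 was called, against 4.59% of all features. That member was Fn1, the fibronectin gene that monocytes share with fibroblasts, which rose by 1.66 (standard error 0.34, adjusted p = 0.0163) and lost its call without DKO I/R 5 days replicates 1 and 2 (adjusted p = 0.0635 to 0.0686). Chil3, a secreted protein of inflammatory monocytes, had values of 9.29, 4.05 and 7.31 at 1 day and 4.30, 4.10 and 4.12 at 5 days, a difference of -2.71 (standard error 0.94, adjusted p = 0.121). Replicate 2 of 1 day lay below all arrays of 5 days, whereas replicates 1 and 3 were far above them. Arg1, an arginase of early wound macrophages, differed by -1.40 (standard error 0.56, adjusted p = 0.183) and the coagulation factor F10 by -0.73 (standard error 0.35, adjusted p = 0.277). Without DKO I/R 1 day replicate 2, the adjusted p was 0.00155 for Chil3 and 0.0406 for Arg1, and 4 members of the list fell. When replicate 1 was left out, the differences of Chil3 and Arg1 were -1.50 (adjusted p = 0.407) and -0.49 (adjusted p = 0.536).

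No gene passed the test among 18 genes of MHC class II and dendritic cells or 20 markers of T and NK cells. Cd74, H2-Aa and H2-Ab1, which serve antigen presentation, lay higher in all 5 day arrays than in all 1 day arrays, with differences of 1.22 (standard error 0.46, adjusted p = 0.153), 1.40 (standard error 0.54, adjusted p = 0.16) and 1.33 (standard error 0.54, adjusted p = 0.185). Over all features, 10.4% lay apart in this direction. Of the 18 genes, 6 did and 1 lay apart in the other direction. Their median difference was only 0.08, with 13 positive and 5 negative differences. The T cell genes Cd3d, Cd4, Foxp3 and Cd2 had values under 5 in all 6 arrays. Of 12 B cell markers, Ighm, the heavy chain of IgM, rose by 1.99 (standard error 0.41, adjusted p = 0.0175) from 6.50, 6.14 and 6.19 to 8.17, 8.44 and 8.19, with sham values of 7.18, 7.28 and 6.97 in between, and lost its call without DKO I/R 1 day replicate 1 or DKO I/R 5 days replicates 1 and 2 (adjusted p = 0.0535 to 0.0667). The B cell genes Cd22, Jchain and Pax5 differed by 0.24, 0.20 and -0.15, and none passed.

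Neutrophil genes lay lower at 5 days, though few passed. The median over 21 neutrophil markers was -0.58, and 7 of them lay lower in all 5 day arrays than in all 1 day arrays, against 12.2% of all features. Lcn2, a neutrophil granule protein that stressed tissue also makes, was the only member called: it went from 12.30, 11.21 and 11.95 to 9.41, 10.61 and 8.06 and fell by 2.46 (standard error 0.64, adjusted p = 0.0439), still above the sham values of 6.72, 6.82 and 7.11. Its call was lost without DKO I/R 1 day replicates 1 and 3 or DKO I/R 5 days replicates 1 and 3 (adjusted p = 0.0901 to 0.158). The chemokine receptor Cxcr2 had values of 8.36, 4.61 and 6.18 at 1 day and 4.40, 4.35 and 4.51 at 5 days, Il1r2, a decoy receptor, 9.07, 4.67 and 5.94 and 4.50, 4.50 and 4.48, and S100a9, an abundant neutrophil protein, 8.83, 4.14 and 5.45 and 4.14, 4.11 and 4.05. In all 3 genes replicate 1 of 1 day was the highest array and replicate 2 lay near the arrays of 5 days. The differences were -1.97 (standard error 0.65, adjusted p = 0.102), -2.07 (standard error 0.72, adjusted p = 0.122) and -2.04 (standard error 0.77, adjusted p = 0.158). Without DKO I/R 1 day replicate 2 all 3 passed (adjusted p = 0.00354, 0.00668 and 0.0106) and 8 of the 21 markers fell, with a median of -0.99. None fell without DKO I/R 1 day replicate 1, when the median was -0.17 and the 3 differences were -0.98, -0.81 and -0.69.

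Chemokines held few calls. None of the 6 CXC chemokines that draw neutrophils passed, and all 6 differences were negative, with a median of -0.92, which was -0.38 without DKO I/R 1 day replicate 1. Cxcl1 differed by -1.24 (standard error 0.40, adjusted p = 0.0934), Cxcl5 by -1.68 (standard error 0.54, adjusted p = 0.0969), the platelet chemokine Ppbp by -1.50 (standard error 0.67, adjusted p = 0.236) and Cxcl3 by -0.59 (standard error 0.29, adjusted p = 0.289). Without DKO I/R 1 day replicate 2, Cxcl1 and Cxcl5 passed (adjusted p = 0.00252 and 0.00142), whereas without replicate 3 of that day Cxcl1 differed by -0.78. Of the 9 CC chemokines of monocytes and macrophages, Ccl8 rose by 2.62 (standard error 0.51, adjusted p = 0.0138), from 4.35, 4.46 and 4.44 to 8.29, 6.02 and 6.81, and lost its call without DKO I/R 1 day replicate 1 or DKO I/R 5 days replicate 1 (adjusted p = 0.0534 to 0.0563). The monocyte attractants Ccl2 and Ccl7 had opposite signs to Ccl8: Ccl2 went from 9.61, 6.12 and 9.57 to 6.72, 6.0 and 5.60, a difference of -2.33 (standard error 0.81, adjusted p = 0.124), and Ccl7 differed by -2.09 (standard error 0.66, adjusted p = 0.0898). Both passed without DKO I/R 1 day replicate 2 (adjusted p = 0.00335 and 0.00705). Ccl9 differed by -1.13 (standard error 0.56, adjusted p = 0.299).

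Among 11 chemokines of lymphocytes and of the resting tissue, Cxcl16 and Cx3cl1 rose. Cxcl16, a ligand made by macrophages and endothelium, stood at 7.70, 7.61 and 7.63 at 1 day, level with sham (7.56, 7.70 and 7.60). At 5 days it stood at 9.88, 9.70 and 9.54. The rise of 2.06 (standard error 0.38, adjusted p = 0.0104) was called in each leave-one-out fit. It was also among the 58 calls with the 2 groups fitted alone (adjusted p = 0.00822). Col1a2, Cilp, Apoe and Bop1 did not pass in that fit (adjusted p = 0.0874, 0.0537, 0.0903 and 0.11). Cx3cl1, the ligand of a receptor on resident macrophages, rose by 0.74 (standard error 0.18, adjusted p = 0.0317) and lost its call without DKO I/R 1 day replicates 1 and 3 or DKO I/R 5 days replicates 1, 2 and 3 (adjusted p = 0.056 to 0.101). The interferon-induced Cxcl9 differed by 0.87 (standard error 0.27, adjusted p = 0.0795) and the B cell attractant Cxcl13 by 0.52 (standard error 0.26, adjusted p = 0.285).

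Chemokine signaling was a pathway of interest in the study, which reported it as attenuated in DKO compared with FFFF hearts after I/R. That contrast between genotypes on the same day was not tested here. The differences in this paragraph are between the days within DKO hearts, and they do not bear on it. Ccl2, Cxcr2, Ppbp and Cxcl3, given above, did not pass between 1 and 5 days in DKO hearts. Further differences that did not pass were 0.93 (standard error 0.76, adjusted p = 0.571) for Ccl3, -1.23 (standard error 0.66, adjusted p = 0.341) for Ccl6 and -0.87 (standard error 0.53, adjusted p = 0.422) for their receptor Ccr1. The leukocyte signaling genes Fgr and Vav1 differed by -0.58 (standard error 0.57, adjusted p = 0.65) and 0.38 (standard error 0.54, adjusted p = 0.775). Ccr1 passed without DKO I/R 1 day replicate 2 (-1.58, adjusted p = 0.0368) and differed by -0.14 without replicate 1 (adjusted p = 0.925). Of 20 leukocyte signaling genes of the pathway, the G protein subunit Gnb4 rose by 0.67 (standard error 0.13, adjusted p = 0.0143) and the transcription factor Stat3 fell by 0.44 (standard error 0.09, adjusted p = 0.0166), with calls lost without DKO I/R 5 days replicate 1 (adjusted p = 0.0668) for Gnb4 and without DKO I/R 1 day replicate 1 or DKO I/R 5 days replicates 1 and 2 (adjusted p = 0.0527 to 0.0775) for Stat3. The receptor Cxcr4 differed by 1.41 (standard error 0.44, adjusted p = 0.0859) and the kinase Prkcd by 0.93 (standard error 0.40, adjusted p = 0.217).

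Neither the 22 acute cytokines and NF-κB targets nor the 20 immediate early genes nor the 24 interferon-stimulated genes held a called member. Their medians were -0.18, -0.42 and 0.45, the first being -0.48 without DKO I/R 1 day replicate 2 and -0.05 without DKO I/R 1 day replicate 3. The transcription factor Myc, a driver of cell growth, came closest to the threshold among the immediate early genes: its values were 9.17, 6.59 and 8.50 at 1 day and 6.48, 6.33 and 6.43 at 5 days, a difference of -1.67 (standard error 0.47, adjusted p = 0.0569). It passed without DKO I/R 1 day replicate 2 (adjusted p = 0.00025). Ier3 differed by -0.85 (standard error 0.28, adjusted p = 0.0973), Fosl1 by -1.12 (standard error 0.42, adjusted p = 0.152) and Fosb by -0.37 (standard error 0.13, adjusted p = 0.134), and Ier3 and Fosl1 also passed without that array (adjusted p = 0.0104 and 0.00371). Without replicate 1 of that day, Ier3 and Fosl1 differed by -0.48 and -0.43 (adjusted p = 0.333 and 0.419). Nfkbia, the inhibitor that NF-κB induces, differed by -0.65 (standard error 0.19, adjusted p = 0.069), the adhesion molecule Vcam1 by 0.73 (standard error 0.26, adjusted p = 0.13), the macrophage growth factor Csf1 by -0.84 (standard error 0.30, adjusted p = 0.137) and Ptx3 by -0.67 (standard error 0.27, adjusted p = 0.181). Csf1 passed without DKO I/R 1 day replicate 2 (adjusted p = 0.00749). Of the interferon-stimulated genes, 13 of 24 lay higher in all 5 day arrays than in all 1 day arrays, as 10.4% of all features did. The differences were 1.17 (standard error 0.34, adjusted p = 0.0686) for Gbp3, 0.94 (standard error 0.29, adjusted p = 0.086) for Gbp2 and 1.33 (standard error 0.44, adjusted p = 0.106) for Ifit1. For Ifit1, the female array of 5 days was highest, with 5 day values of 6.54, 6.42 and 7.70, and the difference was 2.34 (adjusted p = 0.00329) with sex as a covariate. Gbp2 passed without DKO I/R 1 day replicate 2 (adjusted p = 0.0303) and differed by 0.56 without replicate 1.

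**Figure D3:**
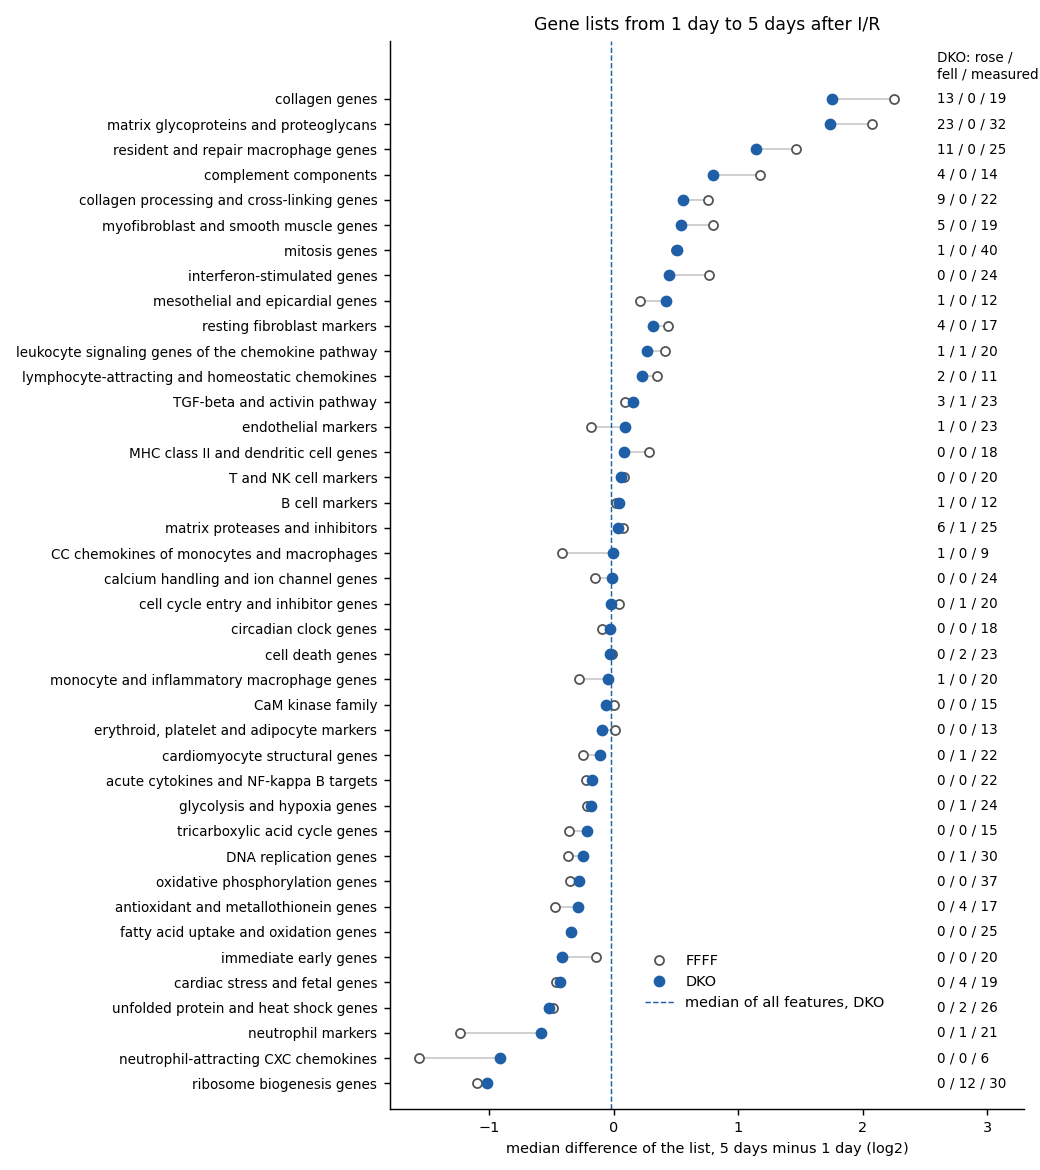
Median difference between 5 days and 1 day (horizontal axis, log2) for 40 gene lists in DKO hearts (filled circles) and FFFF hearts (open circles), with the median of all features in DKO as a dashed line. The numbers at the right give how many members rose, fell and were measured in DKO hearts. Collagen and matrix lists lie highest, with medians of 1.76 and 1.73 in DKO, and ribosome biogenesis lies lowest, with -1.02.

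Genes that build ribosomes were lower at 5 days. Of 30 ribosome biogenesis genes, all 30 differences were negative, 12 fell at the threshold (2.14% of all features fell) and the median was -1.02. The mean of the list was 6.97, 6.93 and 6.92 in sham hearts, 8.41, 7.0 and 8.0 at 1 day and 6.90, 6.82 and 6.91 at 5 days. Replicates 1 and 3 of 1 day stood above all other DKO arrays, and replicate 2 lay just above sham and 5 days. Without replicate 2, 28 of the 30 fell and the median was -1.42. Without replicate 1, 2 fell and the median was -0.66, and the other 4 leave-one-out fits called 3 or 4. Bop1, which helps to mature the large ribosomal subunit, went from 8.19, 7.31 and 8.11 to 6.64, 6.81 and 6.73, fell by 1.14 (standard error 0.20, adjusted p = 0.00826) and was called in each of the 6 fits. Mybbp1a, a nucleolar regulator, fell by 1.35 (standard error 0.25, adjusted p = 0.0124), Rrp9, a component of the small subunit processome, by 0.99 (standard error 0.19, adjusted p = 0.0124), and Nolc1, a chaperone of small nucleolar particles, by 1.24 (standard error 0.25, adjusted p = 0.016). Their calls were lost without DKO I/R 5 days replicate 1 (adjusted p = 0.055) for Mybbp1a, DKO I/R 1 day replicate 1 or DKO I/R 5 days replicate 2 (adjusted p = 0.0553 to 0.0595) for Rrp9 and DKO I/R 1 day replicate 1 or DKO I/R 5 days replicate 2 (adjusted p = 0.067 to 0.068) for Nolc1.

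Chaperones and metallothioneins form groups with known promoter elements. The promoters of Hspa5, Creld2, Sdf2l1, Mt1 and Mt2 are printed, with these elements marked where they were found. The sequences are the 250 bases upstream of the RefSeq gene start in GRCm38.p6, written 5′ to 3′ on the strand of the gene. Capitals mark the ER stress response element (CCAAT, then 9 bases of any kind, then CCACG) in Hspa5 and Creld2, and the core of the metal response element, TGCACNC or TGCGCNC, in Mt1 and Mt2. Sdf2l1 holds no match. Both strands were searched, matches may overlap, and those on the opposite strand are shown as the strand of the gene reads. The windows are chr2:34771840-34772089, plus strand for Hspa5, chr15:88819396-88819645, plus strand for Creld2, chr16:17132384-17132633, minus strand for Sdf2l1, chr8:94178839-94179088, plus strand for Mt1 and chr8:94172368-94172617, plus strand for Mt2.
Hspa5: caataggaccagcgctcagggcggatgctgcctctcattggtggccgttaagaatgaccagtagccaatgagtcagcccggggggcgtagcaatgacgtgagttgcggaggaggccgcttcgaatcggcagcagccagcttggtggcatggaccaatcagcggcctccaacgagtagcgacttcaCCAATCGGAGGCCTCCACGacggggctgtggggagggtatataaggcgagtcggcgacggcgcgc
Creld2: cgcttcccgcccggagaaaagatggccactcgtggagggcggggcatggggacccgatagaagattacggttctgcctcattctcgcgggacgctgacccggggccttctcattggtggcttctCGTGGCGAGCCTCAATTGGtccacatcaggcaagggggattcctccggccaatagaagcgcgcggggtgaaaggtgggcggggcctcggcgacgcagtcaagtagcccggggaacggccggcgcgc
Sdf2l1: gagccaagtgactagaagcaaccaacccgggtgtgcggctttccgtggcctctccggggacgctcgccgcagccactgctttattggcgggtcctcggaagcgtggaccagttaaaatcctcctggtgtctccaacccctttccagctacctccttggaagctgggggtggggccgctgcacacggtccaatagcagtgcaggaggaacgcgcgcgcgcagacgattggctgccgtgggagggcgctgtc
Mt1: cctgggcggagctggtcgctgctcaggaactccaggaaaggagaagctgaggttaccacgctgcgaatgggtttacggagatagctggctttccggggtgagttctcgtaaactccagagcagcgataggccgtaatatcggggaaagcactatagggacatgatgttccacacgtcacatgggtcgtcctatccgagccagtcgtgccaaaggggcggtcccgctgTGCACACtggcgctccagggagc
Mt2: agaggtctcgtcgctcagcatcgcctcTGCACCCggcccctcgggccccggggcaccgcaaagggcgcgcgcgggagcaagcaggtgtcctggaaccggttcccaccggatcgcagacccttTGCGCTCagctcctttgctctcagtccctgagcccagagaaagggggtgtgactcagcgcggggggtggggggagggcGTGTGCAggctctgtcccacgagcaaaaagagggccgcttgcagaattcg

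Of 26 unfolded protein and heat shock genes, 2 fell (2.14% of all features did) and none rose. In this list 24 differences were negative and the median was -0.52. The median was -0.32 without DKO I/R 1 day replicate 1 and -0.27 without DKO I/R 1 day replicate 3, and 0 members fell without DKO I/R 1 day replicate 1. Hspa5, which encodes the chaperone BiP of the endoplasmic reticulum, went from 12.01, 11.21 and 12.17 to 11.21, 10.99 and 10.88 and fell by 0.77 (standard error 0.20, adjusted p = 0.048). Sdf2l1, a partner of BiP, went from 7.56, 7.07 and 8.82 to 6.49, 5.90 and 6.01 and fell by 1.68 (standard error 0.45, adjusted p = 0.0476). The calls were lost without DKO I/R 1 day replicates 1 and 3 or DKO I/R 5 days replicates 1, 2 and 3 (adjusted p = 0.0867 to 0.18) for Hspa5 and without DKO I/R 1 day replicates 1 and 3 or DKO I/R 5 days replicates 1, 2 and 3 (adjusted p = 0.0907 to 0.146) for Sdf2l1. Creld2 and Hyou1, both of the same compartment, differed by -1.07 (standard error 0.29, adjusted p = 0.0531) and -1.08 (standard error 0.30, adjusted p = 0.0547). In each of the 4 genes, the 5 day arrays lay below all 1 day arrays, which their choice by the smallest p makes likely. Of the 26 genes, 7 lay apart in this direction and 1 in the other, against 12.2% of all features in this direction. Without DKO I/R 1 day replicate 2, 10 members of the list fell, Creld2 and Hyou1 among them (adjusted p = 0.00654 and 0.00168). An ER stress response element lay in the window of 6 of the 23 list members with a promoter sequence, Calr, Canx, Creld2, Hsp90b1, Hspa5 and Pdia6, against 0.13% of all 27025 genes with a sequence. Of these 6 only Hspa5 passed the test, and the match in Hspa5 ends 46 bases before the gene start.

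Among 17 antioxidant and metallothionein genes, 4 fell and none rose, with a median of -0.29, which was -0.02 without DKO I/R 1 day replicate 1. Mt1 and Mt2 encode metallothioneins, small metal-binding proteins. Mt1 went from 13.54, 13.47 and 13.47 to 12.80, 13.03 and 13.13, a fall of 0.51 (standard error 0.10, adjusted p = 0.0143), and Mt2 from 11.44, 10.96 and 11.34 to 10.09, 10.24 and 10.24, a fall of 1.06 (standard error 0.24, adjusted p = 0.0251). Mt1 was among the 6 brightest features of every I/R 1 day array and had the identical value of 13.47 in 5 of these 6 arrays of both genotypes. So near the top of the scale, quantile normalization sets a value by its rank, and the size of the Mt1 fall has no meaning beyond that scale. Replicate 2 had the lowest Mt2 value of the 3 arrays of 1 day. Srxn1, which repairs oxidized peroxiredoxins, fell by 1.06 (standard error 0.21, adjusted p = 0.0144), and Gclm, a subunit of the enzyme that starts glutathione synthesis, by 0.81 (standard error 0.20, adjusted p = 0.0338). The calls were lost without DKO I/R 1 day replicate 1 or DKO I/R 5 days replicate 1 (adjusted p = 0.0624 to 0.0662) for Mt1, DKO I/R 1 day replicates 1 and 3 or DKO I/R 5 days replicates 1, 2 and 3 (adjusted p = 0.0602 to 0.109) for Mt2, DKO I/R 1 day replicate 1 (adjusted p = 0.0532) for Srxn1 and DKO I/R 1 day replicate 1 or DKO I/R 5 days replicates 1, 2 and 3 (adjusted p = 0.0791 to 0.104) for Gclm, which differed by -0.53 without DKO I/R 1 day replicate 1. The list held 0 fallen members without DKO I/R 1 day replicate 1, 1 without DKO I/R 5 days replicate 1, 2 without its replicate 2 or 3 and, with 2 risen, 6 without DKO I/R 1 day replicate 2. The metal response core lay once in the window of Mt1 and 3 times in that of Mt2, in 5 of the 14 list members with a sequence and in 23.8% of all genes. The E-box CACGTG, searched in the same way, lay in 1 of 25 ribosome biogenesis promoters, that of Nop2, and in 6.86% of all genes.

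Cardiomyocytes under load switch on stress and fetal genes. Of 19 cardiac stress and fetal genes, 4 fell, none rose and the median was -0.43, which was -0.23 without DKO I/R 5 days replicate 2. Their mean was 8.66, 8.72 and 8.70 in sham hearts, 10.11, 9.49 and 10.02 at 1 day and 9.20, 9.22 and 9.30 at 5 days, so that the 5 day arrays stayed above all sham arrays. Xirp1, an actin-binding protein of the intercalated disc, went from 11.71, 10.40 and 10.81 to 9.41, 9.54 and 9.23 and fell by 1.58 (standard error 0.29, adjusted p = 0.011), with its call kept in all 6 fits. The titin-associated ankyrin proteins Ankrd2 and Ankrd1 fell by 2.90 (standard error 0.60, adjusted p = 0.0174) and 0.44 (standard error 0.09, adjusted p = 0.0158). Ankrd1 was among the 3 brightest features of every I/R 1 day array, with the identical value of 13.68 in 5 of the 6, so the limit given for Mt1 holds for the size of its fall too. Ankrd2 had values of 9.19, 5.75 and 8.27 at 1 day and 4.89, 4.90 and 4.73 at 5 days, the latter level with sham (4.83, 4.81 and 4.71). Hspb1, a small heat shock protein that protects actin, fell by 1.93 (standard error 0.49, adjusted p = 0.04). The calls were lost without DKO I/R 1 day replicates 1 and 3 or DKO I/R 5 days replicates 1 and 2 (adjusted p = 0.053 to 0.0674) for Ankrd2, DKO I/R 1 day replicate 1 or DKO I/R 5 days replicates 1 and 2 (adjusted p = 0.0534 to 0.075) for Ankrd1 and DKO I/R 1 day replicates 1 and 3 or DKO I/R 5 days replicates 1, 2 and 3 (adjusted p = 0.0803 to 0.161) for Hspb1. The list held 1 fallen member without DKO I/R 1 day replicate 1 or DKO I/R 5 days replicates 1 and 2, 2 without DKO I/R 1 day replicate 3 and 8 without its replicate 2.

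The 12 largest falls also held 4 muscle genes outside these lists. Cav3, the caveolin of muscle membranes, went from 8.55, 7.38 and 7.80 to 6.10, 6.42 and 6.34, below the sham values of 6.97, 6.88 and 6.89, and fell by 1.62 (standard error 0.26, adjusted p = 0.00641). Flnc, a filamin that cross-links actin in stressed sarcomeres, went from 12.80, 10.46 and 11.96 to 9.77, 10.11 and 10.01 and fell by 1.78 (standard error 0.41, adjusted p = 0.0277). Klhl40 and Klhl41, kelch proteins that stabilize the thin filament of skeletal muscle, fell by 2.0 (standard error 0.47, adjusted p = 0.0304) and 1.97 (standard error 0.48, adjusted p = 0.035). In Flnc and Klhl41, replicate 2 of 1 day lay near sham, as in the ribosome genes. Cav3 was called in each leave-one-out fit, whereas the others lost their calls without DKO I/R 1 day replicates 1 and 3 or DKO I/R 5 days replicates 1, 2 and 3 (adjusted p = 0.0665 to 0.104) for Flnc, DKO I/R 1 day replicate 1 or DKO I/R 5 days replicates 1, 2 and 3 (adjusted p = 0.0699 to 0.0963) for Klhl40 and DKO I/R 1 day replicates 1 and 3 or DKO I/R 5 days replicates 1, 2 and 3 (adjusted p = 0.0583 to 0.127) for Klhl41. Klhl40 and Klhl41 differed by -1.29 and -1.28 without DKO I/R 1 day replicate 1.

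Outside these groups, Prg4, which encodes the lubricating proteoglycan lubricin, had the largest fall among the called genes, from 11.47, 10.48 and 11.44 to 8.08, 7.38 and 8.79. The fall of 3.05 (standard error 0.34, adjusted p = 0.000906) was called in each leave-one-out fit, and sham values were 7.21, 7.07 and 7.57. Rras2, a Ras-like GTPase, fell by 2.01 (standard error 0.50, adjusted p = 0.0389), Hmga1b, a chromatin protein of growing cells, by 1.68 (standard error 0.32, adjusted p = 0.013), and Irs2, an adaptor of insulin signaling, by 1.61 (standard error 0.42, adjusted p = 0.0476). Their calls were lost without DKO I/R 1 day replicates 1 and 3 or DKO I/R 5 days replicates 1, 2 and 3 (adjusted p = 0.0982 to 0.159) for Rras2, DKO I/R 1 day replicate 1 or DKO I/R 5 days replicate 1 (adjusted p = 0.0606 to 0.0619) for Hmga1b and DKO I/R 1 day replicates 1 and 3 or DKO I/R 5 days replicates 1, 2 and 3 (adjusted p = 0.102 to 0.172) for Irs2. Hmga1b shares most of its sequence with Hmga1, so the 2 may share probe signal. Of 23 cell death genes, 2 fell, against 2.14% of all features. Bcl2l1, an inhibitor of apoptosis, fell by 1.39 (standard error 0.27, adjusted p = 0.0138) and the receptor Tnfrsf12a by 1.33 (standard error 0.33, adjusted p = 0.0388). The call of Bcl2l1 was lost without DKO I/R 1 day replicate 1 (adjusted p = 0.0674). That of Tnfrsf12a was lost without DKO I/R 1 day replicates 1 and 3 or DKO I/R 5 days replicates 1, 2 and 3 (adjusted p = 0.0859 to 0.15). Bcl2l11 and Casp1, which promote cell death, differed by 0.79 (standard error 0.24, adjusted p = 0.0801) and 0.97 (standard error 0.35, adjusted p = 0.131).

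The 22 cardiomyocyte structural genes were the brightest list, with means of 11.65, 12 and 11.61 at 1 day and 11.38, 11.70 and 11.83 at 5 days, and sham means of 12.08, 12.04 and 12.04. Their median difference was -0.11 (-0.22 without DKO I/R 1 day replicate 3 to -0.05 without DKO I/R 1 day replicate 2), and only Csrp3, a mechanosensor of the Z-disc, passed: it fell by 0.64 (standard error 0.14, adjusted p = 0.0191) and lost its call without DKO I/R 1 day replicates 1 and 3 or DKO I/R 5 days replicates 1 and 2 (adjusted p = 0.0595 to 0.0926). Mybpc3, Myom1 and Actn2, all of the sarcomere, differed by 0.73 (standard error 0.29, adjusted p = 0.174), -0.43 (standard error 0.21, adjusted p = 0.278) and -0.34 (standard error 0.18, adjusted p = 0.312), and Mybpc3 passed without DKO I/R 1 day replicate 2 (1.12, adjusted p = 0.0079) and differed by 0.44 without replicate 1. None of 24 calcium handling and ion channel genes passed. Kcnip2 and Kcnd2, subunits of the transient outward potassium channel, had 5 day values of 7.33, 8.20 and 8.98 and 7.98, 8.86 and 8.79 against sham values of 10.21, 10.09 and 9.90 and 9.54, 9.68 and 9.36. At 1 day they were 5.90, 7.87 and 5.85 and 6.30, 8.35 and 6.68, with replicate 2 within the range of 5 days, and the differences were 1.63 (standard error 0.80, adjusted p = 0.289) and 1.44 (standard error 0.57, adjusted p = 0.176). Trdn, which anchors the calcium release unit, differed by -0.66 (standard error 0.18, adjusted p = 0.0563). Trdn passed without DKO I/R 1 day replicate 3 (adjusted p = 0.0323), and Kcnd2 without replicate 2 (adjusted p = 0.0307).

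**Figure D4:**
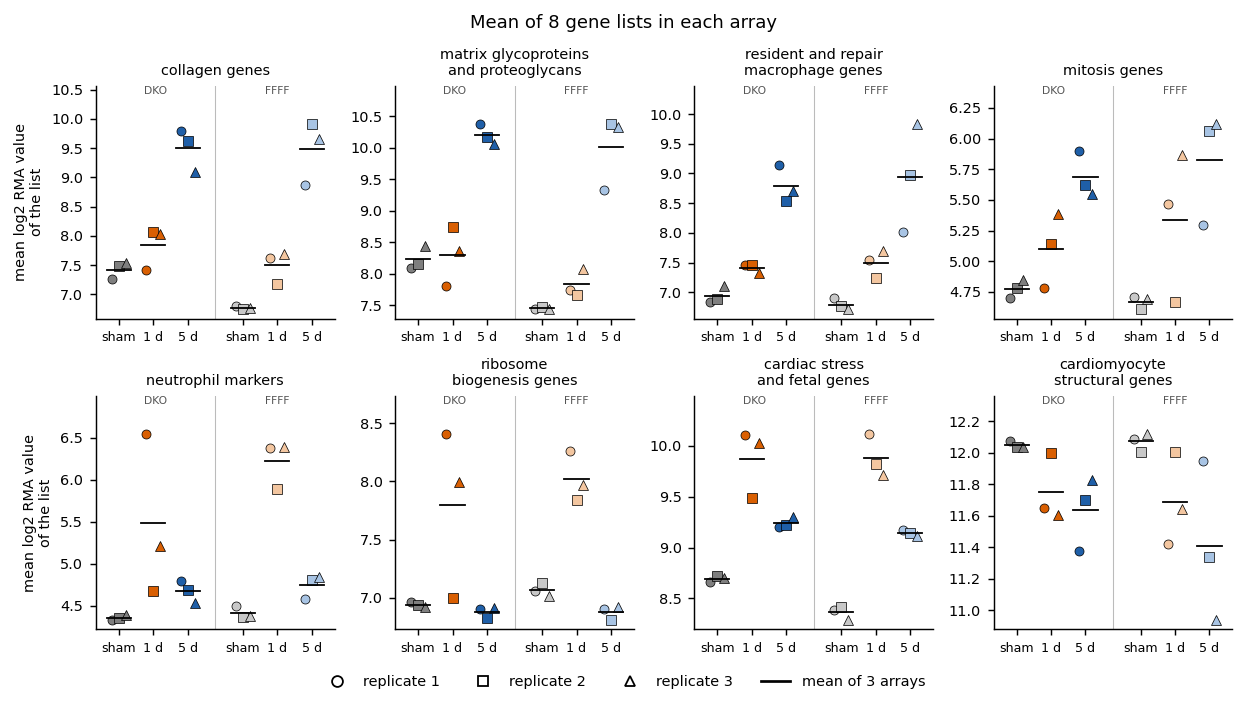
Mean log2 RMA value (vertical axes) of 8 gene lists in each array of DKO and FFFF hearts after sham surgery and on both days after I/R. Symbols mark replicates and lines the mean of 3 arrays. In DKO hearts the neutrophil and ribosome biogenesis lists of 1 day spread from near the level of 5 days in replicate 2 (4.68 and 7.0) to the highest value in replicate 1 (6.54 and 8.41), whereas the arrays of 5 days lie close together.

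Genes of energy metabolism held 1 call. None of 37 oxidative phosphorylation, 15 tricarboxylic acid cycle and 25 fatty acid uptake and oxidation genes was called, although 35, 12 and 23 of the differences were negative, with medians of -0.28, -0.22 and -0.34. The oxidative phosphorylation median was -0.16 without DKO I/R 5 days replicate 1. The median of the tricarboxylic acid cycle list was -0.10 without DKO I/R 5 days replicate 1 and -0.37 without DKO I/R 5 days replicate 3, and that of the fatty acid list -0.14 without DKO I/R 1 day replicate 2, -0.14 without DKO I/R 5 days replicate 1 and -0.53 without DKO I/R 5 days replicate 3. The oxidative phosphorylation list had means of 10.81, 10.81 and 10.77 in sham hearts, 10.35, 10.53 and 10.28 at 1 day and 9.93, 10.15 and 10.37 at 5 days, and the 2 days overlapped. The lowest 5 day mean was that of replicate 1, the array whose cardiomyocyte structural genes were lowest as well, and whether the 2 are linked was not tested. The closest to the threshold were Ndufa2 (-0.39, adjusted p = 0.203), Idh3b (-0.38, adjusted p = 0.248) and Eci1 (-0.94, adjusted p = 0.277) of the 3 lists. In the glycolysis and hypoxia list, 1 of 24 genes fell, against 2.14% of all features. This was Hk1, the hexokinase of most tissues, which fell by 0.54 (standard error 0.13, adjusted p = 0.0328). It lost its call without DKO I/R 1 day replicates 1 and 2 or DKO I/R 5 days replicates 1, 2 and 3 (adjusted p = 0.0522 to 0.138). The glucose transporter Slc2a1 differed by -1.04 (standard error 0.42, adjusted p = 0.183), from 9.62, 7.48 and 9.46 to 7.72, 7.76 and 7.97, passed without DKO I/R 1 day replicate 2 (-1.72, adjusted p = 0.000675) and differed by -0.65 without replicate 1.

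Cell cycle genes held few calls. Of 40 mitosis genes, 37 differences were positive, 21 lay higher in all 5 day arrays (10.4% of all features did) and the median was 0.51, but only Nusap1, a spindle protein, passed. It rose by 1.25 (standard error 0.32, adjusted p = 0.041), from 4.34, 4.82 and 4.93 to 6.21, 5.76 and 5.85, and lost its call without DKO I/R 1 day replicates 1 and 3 or DKO I/R 5 days replicates 1, 2 and 3 (adjusted p = 0.0568 to 0.161). Anln, which drives cytokinesis, differed by 1.36 (standard error 0.43, adjusted p = 0.0881), and the kinesins Kif2c and Kif20b by 0.61 (standard error 0.21, adjusted p = 0.128) and 0.55 (standard error 0.17, adjusted p = 0.0784). Of 30 DNA replication genes, 24 differences were negative, with a median of -0.25 (-0.39 without DKO I/R 1 day replicate 2 and -0.06 without DKO I/R 1 day replicate 3), and only Uhrf1, which copies DNA methylation, passed: it fell by 0.78 (standard error 0.21, adjusted p = 0.0456) and lost its call without DKO I/R 1 day replicates 1 and 3 or DKO I/R 5 days replicates 1, 2 and 3 (adjusted p = 0.0911 to 0.146). The thymidine kinase Tk1, the polymerase subunit Pold1 and the clamp loader subunit Rfc5 differed by -0.49 (standard error 0.13, adjusted p = 0.0507), -0.45 (standard error 0.13, adjusted p = 0.0762) and -0.50 (standard error 0.17, adjusted p = 0.118). Tk1 passed without DKO I/R 1 day replicate 1 (adjusted p = 0.0226) and Pold1 without replicate 2 (adjusted p = 0.0131). Ccnd1, the cyclin that starts the cycle, fell by 1.05 (standard error 0.23, adjusted p = 0.0204) from 9.42, 8.75 and 9.69 to 8.16, 7.98 and 8.57, the sham values being 8.19, 8.78 and 8.32, and lost its call without DKO I/R 1 day replicates 1 and 3 or DKO I/R 5 days replicates 1 and 2 (adjusted p = 0.062 to 0.0882).

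Lists of other cell types of the ventricle held single calls at most, against 4.59% of all features. Of 23 endothelial markers, Aplnr, the apelin receptor, rose by 1.76 (standard error 0.40, adjusted p = 0.0251), from 5.95, 6.28 and 7.13 at 1 day to 8.53, 8.16 and 7.93, and lost its call without DKO I/R 1 day replicate 1 or DKO I/R 5 days replicates 1 and 2 (adjusted p = 0.0749 to 0.115). The vascular growth factor receptor Kdr, the nitric oxide synthase Nos3 and Rgcc differed by 0.66 (standard error 0.22, adjusted p = 0.116), -0.63 (standard error 0.23, adjusted p = 0.138) and -0.92 (standard error 0.37, adjusted p = 0.177). Of 12 mesothelial and epicardial genes, the keratin Krt18 rose by 1.18 (standard error 0.20, adjusted p = 0.00846) and was called in each leave-one-out fit, whereas Aldh1a2, which makes retinoic acid, differed by -0.90 (standard error 0.29, adjusted p = 0.0906) and stayed above sham at both days, with 5.55, 5.48 and 5.0 in sham hearts, 9.49, 8.43 and 9.38 at 1 day and 8.61, 8.27 and 7.72 at 5 days. Aldh1a2 passed without DKO I/R 1 day replicate 2 (adjusted p = 0.00924). None of 18 circadian clock genes, 15 genes of the CaM kinase family or 13 erythroid, platelet and adipocyte markers was called. Camk2d and Camk2g themselves differed by -0.07 (standard error 0.32, adjusted p = 0.945) and -0.16 (standard error 0.26, adjusted p = 0.812).

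In FFFF hearts the same comparison called 1531 features (6.25%), 747 that rose (3.05%) and 784 that fell (3.20%). The count was 604 without FFFF I/R 1 day replicate 1, 809 without its replicate 3, 2962 without FFFF I/R 5 days replicate 1, 513 without its replicate 2 and 667 without its replicate 3. The DKO and FFFF comparisons share no arrays, but they were normalized and fitted together. Sex was also split between the days in the same way in both genotypes. Replicates 1 and 2 of 5 days were male, and all 1 day arrays were female. Whether sex contributes to the agreement between the genotypes was not tested. Of the genes called in DKO hearts, 651 were called in FFFF hearts in the same direction and none in the opposite direction, which is 57.9% of the DKO calls and 42.5% of the FFFF calls. Of the 599 genes that rose in DKO hearts, 587 had a positive difference in FFFF hearts, and of the 525 that fell, 490 had a negative one, as the plot of both genotypes shows. All 13 risen collagens, 23 risen matrix genes and 11 risen macrophage genes of DKO hearts were also called in FFFF hearts, as were 11 of the 12 fallen ribosome biogenesis genes. The list medians in FFFF hearts were 2.25 for collagens, 2.07 for matrix glycoproteins and proteoglycans, 1.47 for resident and repair macrophages, -1.24 for neutrophil markers and -1.10 for ribosome biogenesis. Of 21 neutrophil markers, 9 fell in FFFF hearts and 1 in DKO hearts, where 8 fell without DKO I/R 1 day replicate 2. Over all features, 3.20% fell in FFFF hearts and 2.14% in DKO hearts. The difference between the counts was not tested, and no single gene passed the test between genotypes given below.

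**Figure D5:**
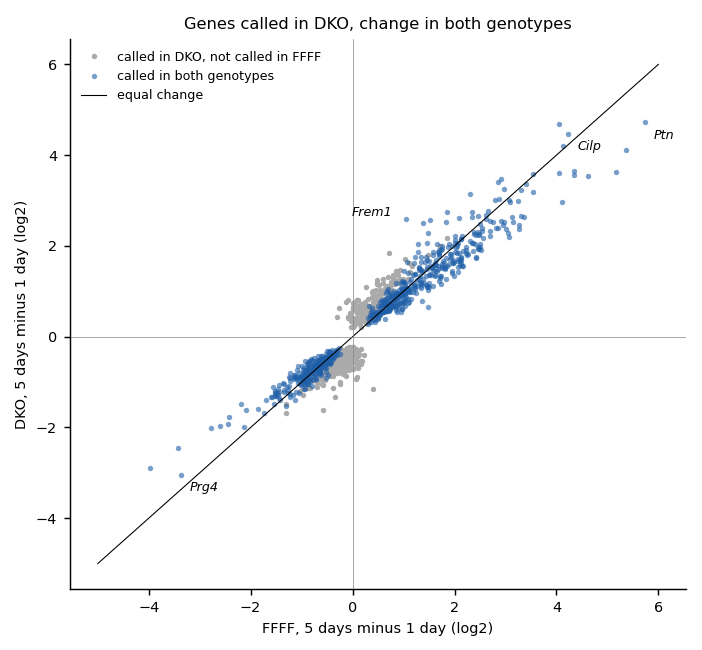
Difference between 5 days and 1 day (log2) in FFFF hearts (horizontal axis) and DKO hearts (vertical axis) for the 1124 genes called in DKO hearts. Blue points were called in both genotypes (651 genes, all in the same direction), grey points in DKO and not in FFFF, and the line marks equal change. Frem1 lies above the line, with 2.59 in DKO and 1.04 in FFFF.

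The change between the days was then compared between the genotypes directly. No gene passed (smallest adjusted p = 0.978, limma), and 1207 of 24479 features (4.93%) had an unadjusted p under 0.05. The widest gap among the 6 genes with the smallest p was that of Frem1, which encodes a basement membrane protein: in DKO hearts it went from 4.22, 4.52 and 4.05 to 7.34, 7.03 and 6.18, and in FFFF hearts from 4.26, 4.31 and 4.09 to 5.16, 5.32 and 5.31. All DKO arrays of 5 days thus lay above all FFFF arrays of that day, which the choice of Frem1 by its small p makes likely. The rise was 2.59 (standard error 0.21, adjusted p = 0.000224) in DKO hearts and 1.04 (adjusted p = 0.0124) in FFFF hearts, and the changes differed by 1.54 (standard error 0.30, unadjusted p = 0.000164). Of the leave-one-out fits, it passed only in that without DKO I/R 5 days replicate 3 (1.88, adjusted p = 0.0026). The other 5 genes were the mitochondrial folate carrier Slc25a32 (0.73, standard error 0.13, unadjusted p = 7.95e-05), the zinc finger genes Zfp975 (0.91, standard error 0.18, unadjusted p = 0.000224) and Zfp458 (0.74, standard error 0.16, unadjusted p = 0.000366), the Myc-binding protein Mycbp (0.63, standard error 0.14, unadjusted p = 0.000383) and the ubiquitin ligase Cop1 (0.60, standard error 0.13, unadjusted p = 0.000435). Cop1 and Zfp975 rose in DKO hearts by 0.60 (standard error 0.09, adjusted p = 0.00551) and 0.81 (standard error 0.13, adjusted p = 0.00641), called in each leave-one-out fit, with FFFF differences of 0.0 (adjusted p = 1) and -0.10 (adjusted p = 0.785). Without FFFF I/R 5 days replicate 1, Cadm1 and Cemip, named after their values were seen, passed with differences of -1.62 and -1.45 (adjusted p = 0.00337 for both), against -0.83 and -0.37 with all arrays.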

How the data were processed

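RNA of 18 mouse hearts or heart regions was hybridised to Affymetrix mogene20-st-v1 arrays, 3 per group. Per the labels and methods, the authors deposited log2 values from RMA (version not given in the sources used here) after quantile normalization, with a custom chip definition of 1 feature per Entrez gene. No further transformation was made. Of 24479 features, 23837 had a symbol through the platform table or the RefSeq gene table (GRCm38.p6), and 837 of 844 list genes were matched. The fit and 3 contrasts (DKO 5 days minus 1 day, the same in FFFF, and their difference) used limma 3.58.1 in R 4.3.3 (lmFit on the 6 groups, eBayes) on all 18 arrays, with Benjamini-Hochberg adjustment over all features, two-sided, at 0.05. The methods name an ANOVA at a stricter rate, so a gene-wise analysis of variance and 0.01 were among the alternatives. All adjusted p-values in the text are from limma, and standard errors pool the spread of all 6 groups.

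The members, gene lists and tests were chosen with earlier results of these data known. Genes named are the 12 largest rises and falls among called, non-overlapping genes, up to 4 members of each list with the smallest p, genes the paper names, the 6 smallest p-values between genotypes and sex-linked transcripts. A few genes that this rule names are not reported here. Others are marked as named after their values were seen. Alternatives were a variance trend, robust moderation, array weights, a filter on dim features (16091 kept, brighter than the array's 40th percentile on 3 or more arrays), median centring, a further quantile normalization, replicate number as a block, sex as a covariate, female arrays alone, the 2 groups alone, a minimum difference of 1 and each array left out. Chosen later, after seeing the data, were the 4 I/R groups without sham, and the block with the 2 DKO groups alone.

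On simulated data of this comparison with 24479 genes, limma recovered 46% of 50 genes changed by 0.5 (log2), 80% at 1, 94% at 2 and 100% at 4, and called 8 unchanged genes. The simulated spread was equal between groups, which the real one was not. Promoter sequences are from RefSeq. The number of arrays limits the precision. The files hold no depth.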

Additional observations from a re-analysis of the deposited data

How the results depend on the processing

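For DKO 5 days against 1 day, 1124 genes were called. Variance trend, robust moderation, the filter on dim features, further quantile normalization, median centring and the replicate block gave 931 to 1235. Array weights gave 2292, gene-wise analysis of variance 691, sex as a covariate 479, a threshold of 0.01 178, a minimum difference of 1 361, the 2 groups alone 58 and female arrays alone at 5 days 29. Leaving out single arrays gave 275 to 2041. Chosen after seeing the data, the 4 I/R groups without sham gave 161, and the replicate block with the 2 DKO groups alone gave 0. In FFFF hearts, 1531 genes were called: array weights gave 4335, sex as a covariate 881, a threshold of 0.01 382, a minimum difference of 1 557, the 2 groups alone 261, the 4 I/R groups 290 and leaving out single arrays 513 to 2962. For the difference between genotypes, leaving out single arrays gave 0 to 2 and all other settings 0.

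The replicate block called 1066 genes in DKO hearts, 955 of them among the 1124. The numbers were not taken to pair the arrays, since the deviations of same-numbered arrays correlated by 0.243, 0.0314 and -0.107. Groups of 3 arrays with an unequal spread, partly confounded with sex, limit all calls.

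No gene named in the text that passed the test reversed its direction under any setting run. Differences that had not passed the test changed sign as follows. With sex as a covariate they were -0.30 for Igf2, 0.046 for Dlk1 and 0.46 for Xist. With female arrays alone at 5 days they were 0.23 for Camk2d, -0.25 for H19, -0.27 for Igf2, 0.13 for Dlk1 and 0.37 for Xist. With single arrays left out they ranged from -0.44 to 0.47 for Camk2d, -0.38 to 0.17 for Camk2g, -1.22 to 0.091 for Fgr, -0.025 to 0.69 for Vav1, -0.53 to 0.046 for Hsp90b1, -0.074 to 0.041 for Dlk1, -0.046 to 0.26 for Igf2 and -0.14 to 0.0052 for Mirg.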

Other observations

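Outside the gene lists, some noncoding transcripts of the imprinted Dlk1-Meg3 region on chromosome 12 rose in DKO hearts between 1 and 5 days. They were chosen after their values were seen. Meg3, a long noncoding RNA, had values of 5.84, 5.84 and 6.34 in sham hearts, 6.05, 6.20 and 6.39 at 1 day and 7.81, 8.12 and 7.57 at 5 days. It rose by 1.62 (standard error 0.27, adjusted p = 0.00756), was called in all 6 leave-one-out fits and had a difference of 1.79 (adjusted p = 0.003) in FFFF hearts. Rian, the host of small nucleolar RNAs, rose by 1.54 (standard error 0.41, adjusted p = 0.0488), from 4.79, 4.19 and 5.69 to 6.45, 6.93 and 5.92, and lost its call without DKO I/R 1 day replicates 1 and 2 or DKO I/R 5 days replicates 1, 2 and 3 (adjusted p = 0.053 to 0.174). AF357355 and AF357425, small RNA features of the same chromosome, rose by 3.59 (standard error 0.61, adjusted p = 0.00819) and 2.75 (standard error 0.50, adjusted p = 0.0102). AF357355 was called in all 6 leave-one-out fits, and AF357425 lost its call without DKO I/R 5 days replicate 1 (adjusted p = 0.0523). AF357355 had 5 day values of 9.79, 9.02 and 7.10 and AF357425 of 9.53, 9.38 and 8.13, the female array being the lowest in both, and with sex as a covariate the differences were 2.87 (adjusted p = 0.0554), 2.26 (adjusted p = 0.0682), 1.49 (adjusted p = 0.0451) for Meg3 and 1.26 (adjusted p = 0.224) for Rian. Mirg and the protein-coding Dlk1 of the region differed by -0.05 (standard error 0.13, adjusted p = 0.892) and -0.01 (standard error 0.07, adjusted p = 0.974), and all 9 DKO arrays lay under 5 in both. H19, a noncoding RNA of another imprinted region, on chromosome 7, had 5 day values of 8.39, 8.53 and 5.48, high in the 2 male arrays and at the 1 day level (5.95, 5.64 and 5.60) in the female array, with a difference of 1.73 (standard error 0.60, adjusted p = 0.121). Without that array H19 rose (adjusted p = 0.00181). Its neighbour Igf2 differed by 0.08 (standard error 0.22, adjusted p = 0.894).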
